A study of Mus musculus with 24 samples.

Results

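The 10 genes described here encode the recombinase that assembles immunoglobulin genes (Rag1, Rag2), the surrogate light chain and a related protein (Vpreb1, Igll1, Vpreb3), transcription factors of early lymphocytes (Sox4, Lef1, Myb) and surface proteins of early B cells (Spn, Il7r). They were chosen by gene symbol, and every probe set annotated to only 1 of them was read, which gave 10 of the 18193 genes with a probe set of their own and 23 of the 45101 probe sets on the array. Sox4 had 8 probe sets and Myb had 3, while Igll1, Il7r, Lef1 and Spn had 2 each and Rag1, Rag2, Vpreb1 and Vpreb3 had 1 each. Each gene is described through its most variable probe set over the arrays, and the others are given by range and count. A further probe set annotated to both Vpreb1 and Vpreb2 fell outside the rule. The RNA came from splenic B cells of female mice aged 7 weeks, of the strain NOD/ShiLtJ (NOD), which develops autoimmune diabetes spontaneously, and of the strain C57BL/6/J (B6), which does not. In each strain cells were taken from 8 pooled mice, depleted of cells bearing CD3 or CD11b, and sorted by CD93, CD23, CD24, IgM, B220 and CD21/35 into the subsets labelled T1, T2FO, T3, FO, T2MZ and MZ. T1, T2FO and T3 are transitional cells, FO are mature follicular and MZ mature marginal zone cells, and T2MZ lies between the transitional and the marginal zone cells. The sort was done again on new pools, so each of the 12 groups of strain and subset had 2 arrays, and the 24 arrays came from 4 pools of mice, 2 for each strain.

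Early B cells of the bone marrow cut and join immunoglobulin gene segments with the RAG recombinase, pair the new heavy chain with a surrogate light chain, and depend on interleukin 7. These genes are turned down as a B cell places its receptor on the surface and leaves for the spleen, where transitional cells, the youngest of the periphery, mature into follicular or marginal zone cells. CD93, one of the proteins sorted on, marks immature cells, and CD21 rises as cells take the marginal zone course.

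The stretches of 250 bases before the RefSeq start site (mouse build GRCm38.p6) are shown for the 5 genes whose probe sets differed between subsets or strains and for Vpreb1 and Igll1, which lie beside each other on chromosome 16. They are written 5′ to 3′ towards the start site, and capitals mark CAGGTG, the motif of E proteins, or AACGG, the core of the MYB motif, on either strand. Sequences were available for all 10 genes. The Rag1 window is chr2:101649533-101649782 (minus strand), that of Vpreb1 chr16:16869256-16869505 (minus strand) and that of Igll1 chr16:16863986-16864235 (minus strand). The Sox4 window is chr13:28953700-28953949 (minus strand), that of Lef1 chr3:131110047-131110296 (plus strand), that of Myb chr10:21160985-21161234 (minus strand) and that of Spn chr7:127137824-127138073 (minus strand).
Rag1: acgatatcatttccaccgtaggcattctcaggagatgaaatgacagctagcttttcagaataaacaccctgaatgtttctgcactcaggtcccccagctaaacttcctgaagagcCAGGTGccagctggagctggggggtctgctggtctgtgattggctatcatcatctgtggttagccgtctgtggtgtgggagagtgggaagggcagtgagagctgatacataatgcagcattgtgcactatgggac
Vpreb1: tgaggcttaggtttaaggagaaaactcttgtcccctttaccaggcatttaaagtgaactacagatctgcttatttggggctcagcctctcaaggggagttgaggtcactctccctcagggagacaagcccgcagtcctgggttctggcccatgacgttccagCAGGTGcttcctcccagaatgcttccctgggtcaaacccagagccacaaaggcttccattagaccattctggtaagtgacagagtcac
Igll1: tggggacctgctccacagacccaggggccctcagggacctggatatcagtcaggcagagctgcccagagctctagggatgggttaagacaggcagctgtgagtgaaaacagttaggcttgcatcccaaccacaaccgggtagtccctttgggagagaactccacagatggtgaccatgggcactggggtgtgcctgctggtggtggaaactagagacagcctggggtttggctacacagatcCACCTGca
Sox4: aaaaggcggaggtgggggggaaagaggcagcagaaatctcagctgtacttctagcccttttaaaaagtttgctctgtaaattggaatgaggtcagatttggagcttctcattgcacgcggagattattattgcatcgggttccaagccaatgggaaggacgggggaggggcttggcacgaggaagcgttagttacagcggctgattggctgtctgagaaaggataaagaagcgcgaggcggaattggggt
Lef1: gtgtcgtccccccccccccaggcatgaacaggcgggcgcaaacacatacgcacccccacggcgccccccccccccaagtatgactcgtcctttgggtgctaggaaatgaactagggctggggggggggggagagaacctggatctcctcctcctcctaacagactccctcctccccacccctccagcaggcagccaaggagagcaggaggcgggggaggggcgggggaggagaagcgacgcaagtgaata
Myb: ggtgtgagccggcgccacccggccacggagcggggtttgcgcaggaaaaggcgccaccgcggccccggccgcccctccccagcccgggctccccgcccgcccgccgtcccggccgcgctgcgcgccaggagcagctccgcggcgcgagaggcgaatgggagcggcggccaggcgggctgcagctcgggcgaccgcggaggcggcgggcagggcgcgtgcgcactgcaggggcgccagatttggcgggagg
Spn: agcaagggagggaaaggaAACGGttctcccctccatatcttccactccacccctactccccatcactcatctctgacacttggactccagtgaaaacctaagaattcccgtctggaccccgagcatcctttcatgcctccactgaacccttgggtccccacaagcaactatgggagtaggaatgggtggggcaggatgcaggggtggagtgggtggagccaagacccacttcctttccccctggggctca
The E protein motif stood in the windows of Rag1, Vpreb1 and Igll1, that is 3 of the 10 genes, and in 17.2% of the 32851 mouse promoter windows of this length. Counted from the start site, it lay at -135 to -130 in Rag1, at -88 to -83 in Vpreb1 and at -8 to -3 in Igll1, there on the other strand. AACGG stood in the windows of Rag2, Spn and Il7r, also 3 of 10, and in 14.5% of all windows. The Spn copy lay at -232 to -228. Also searched on both strands were the palindromic motif of EBF1 (in 0.779% of all windows), TGTTTAC (FOXO factors, 3.17%) and CTTTGA (LEF1 and TCF factors, 13.8%), and none of the 10 windows held them. No match overlapped another, and a match is a description of letters only.

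The deposited values are log2 values with each probe set centred on its median over the 24 arrays, so a value of 1 means 1 log2 unit above that median, and no level of expression and no signal over background could be read. Fewer cells of a type and less RNA per cell cannot be told apart in such samples. Transcripts of 3 of the proteins sorted on were read as a check of the labels. Cd93 had values of -2.04 and -2.14 in the arrays labelled NOD T1 and 0.51 and -0.09 in those labelled NOD T2FO, against 3.14 and 2.98 in B6 T1 and 2.72 and 2.77 in B6 T2FO. Cr2, which encodes CD21 and CD35, had values of 1.24 and 1.16 in the arrays labelled NOD T1, against -1.83 and -1.62 in B6 T1. Fcer2a, which encodes CD23, had values of -1.64 and -1.49 in the arrays labelled NOD T1, against -1.29 and -1.16 in B6 T1, and of 1.02 and 0.92 in those labelled NOD MZ, against -1.85 and -1.21 in B6 MZ. The arrays labelled NOD T1 thus went against their label on Cd93 and Cr2. Fcer2a was low in T1 of both strains but also in B6 MZ, so it does not tell T1 from MZ. The arrays labelled NOD T2FO on Cd93 and NOD MZ on Fcer2a also differed from the B6 arrays of the same label. No array was moved to another group, and all NOD groups are called by their labels. A second feature concerned B6. The 5′ probe set for beta-actin minus its 3′ probe set gave -0.676 to 0.633 log2 units in the NOD arrays, against -3.94 to -3.09 in 6 B6 arrays, namely 1 of each subset, and -1.11 to 0.42 in the other 6 B6 arrays. Results were therefore also computed without those 6 B6 arrays and with only those 6 of B6. In these fits each B6 group had 1 array, so the spread came from the NOD arrays alone. A probe set was counted as called at a Benjamini-Hochberg adjusted p under 0.05 in limma, over the 45037 probe sets that are no controls.

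**Figure D1:**
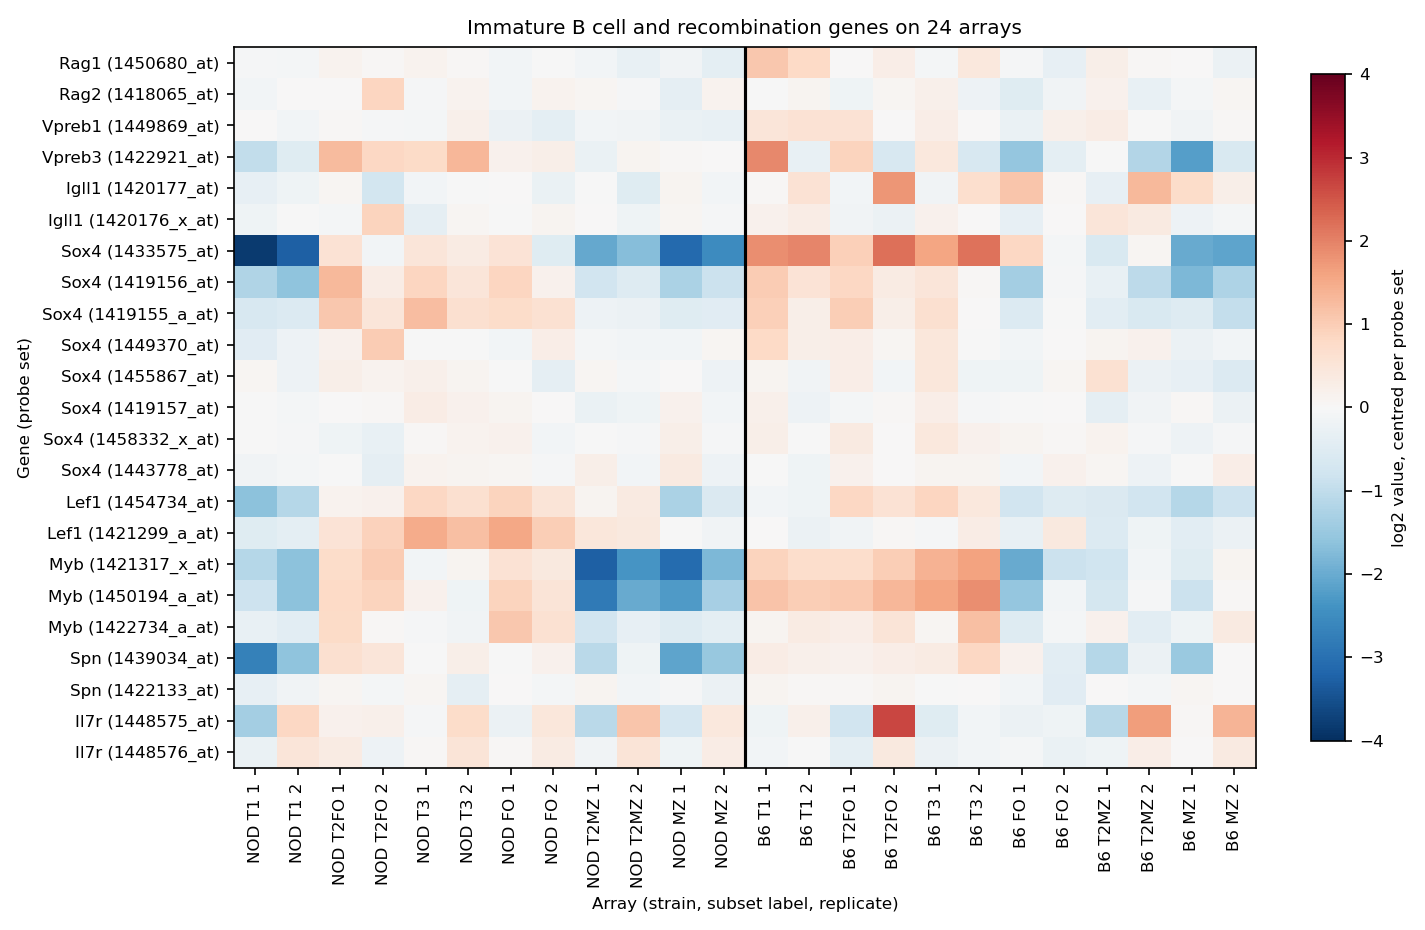
Values of all 23 probe sets of the 10 genes (down the page) in each of the 24 arrays (across, the NOD arrays left of the B6 arrays, by subset and replicate), in log2 units relative to the median over all arrays. The arrays labelled NOD T1, T2MZ and MZ read low for the described probe sets of Sox4 and Myb, and B6 T1, T2FO and T3 read high for Sox4.

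Sox4, Myb, Lef1 and Rag1 transcripts were higher in the transitional than in the mature B6 subsets. Of the 23 probe sets, 7 were higher in the transitional B6 arrays (T1, T2FO and T3) than in the mature ones (FO and MZ) and 0 were lower, where 3.98% of all probe sets were called either way and 1.92% were higher. The 7 belonged to Sox4 (3), Myb (2), Lef1 and Rag1. The median difference over the 23 probe sets was 0.36, against 0.01 over all probe sets tested. Between the NOD groups of the same labels 0 of 23 were called, where 0.0333% of all probe sets were called either way, and 2 of the 23 had an unadjusted p under 0.05 in limma. Of the 3 sort marker genes, 0 were called between those NOD groups and 2 between the B6 groups, so the NOD count also rests on the labels. Fitted on only the B6 arrays compared, without T2MZ, the B6 comparison called 3 of the 23.

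**Figure D2:**
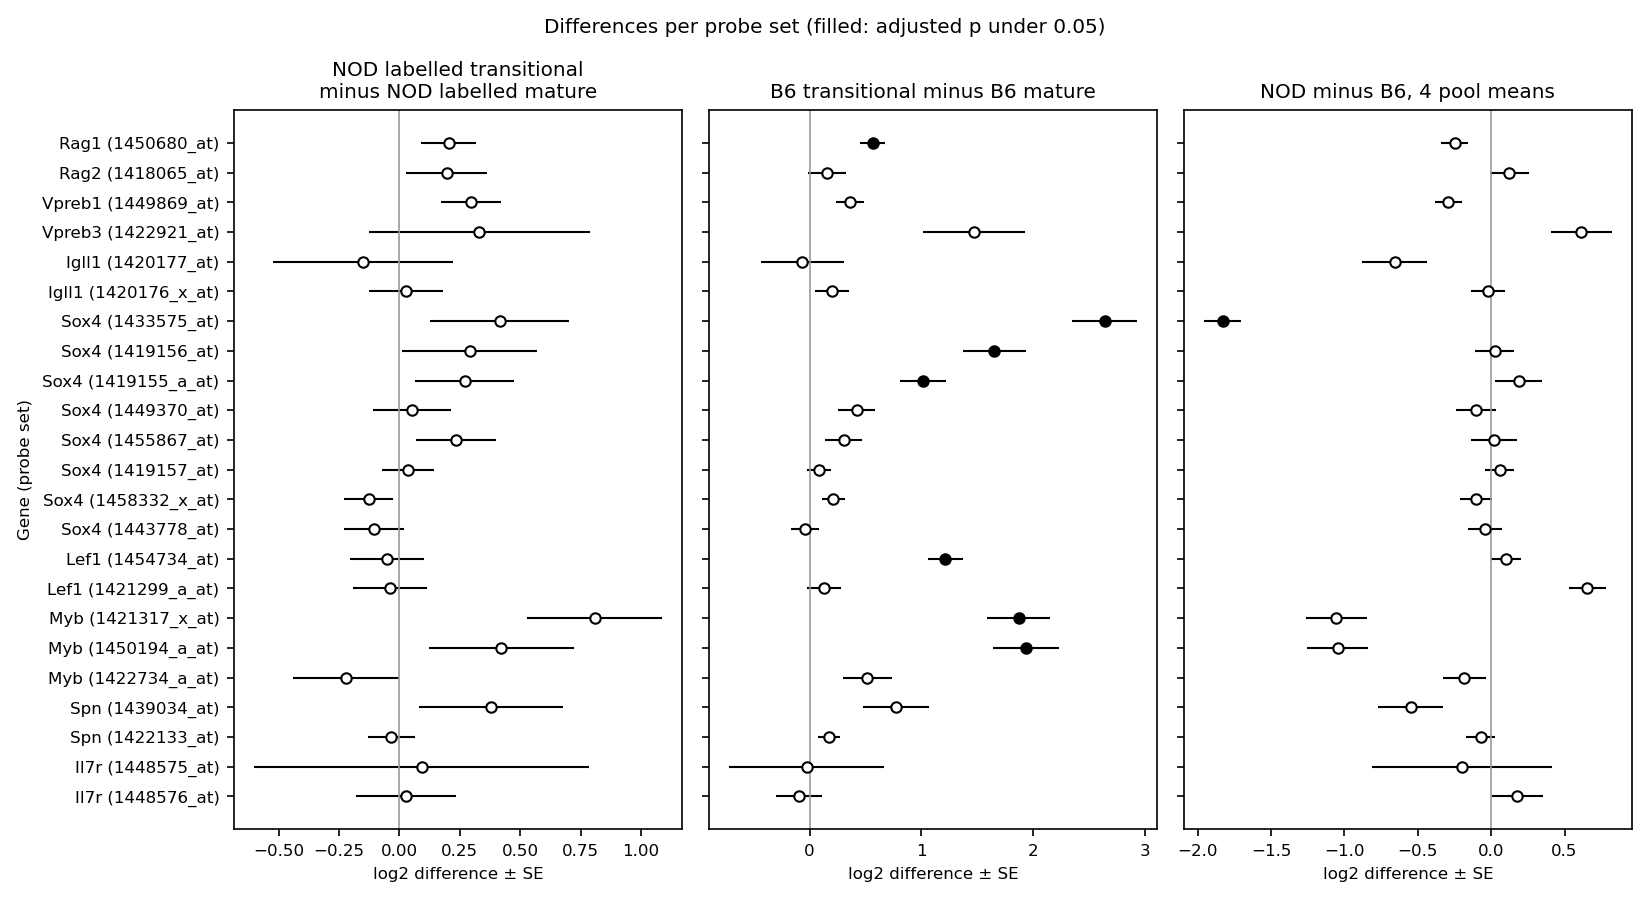
Differences in log2 units with standard errors from limma for all 23 probe sets, filled where called, for transitional minus mature arrays within NOD and within B6 and for NOD minus B6 over the subsets. In B6 the described probe sets of Sox4 (2.64), Myb (1.87), Lef1 (1.21) and Rag1 (0.56) were called higher in the transitional arrays, and Sox4 (-1.83) was called lower in NOD than in B6.

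Rag1, the part of the recombinase that binds and cuts the recombination signal, stood out in B6 T1. Values of its probe set, 1450680_at, were -0.04 and -0.08 in T1, 0.13 and 0.04 in T2FO, 0.14 and 0.04 in T3, -0.11 and -0.01 in FO, -0.10 and -0.31 in T2MZ and -0.15 and -0.38 in MZ of NOD. B6 arrays had 1.08 and 0.78 in T1, 0.02 and 0.25 in T2FO, -0.07 and 0.42 in T3, -0.06 and -0.33 in FO, 0.24 and 0.06 in T2MZ and 0.01 and -0.23 in MZ. Both B6 T1 arrays lay above every other array of the 24, and the other groups of both strains overlapped. Within B6, Rag1 was higher in T1 than in FO by 1.12 ± 0.18 log2 units (standard error from limma, adjusted p = 0.00486, n = 2 arrays each). In that comparison 2 of the 23 probe sets were higher and 0 lower, where 1.01% of all probe sets were called either way and 0.548% were higher. The other was Myb. Without replicate 1 of B6 T1 0 were called there, and without replicate 2 of B6 T1 or replicate 1 of B6 FO 1 was. Against the mean of the other B6 groups, Rag1 in T1 was higher by 0.90 ± 0.14 (limma adjusted p = 0.00558), the only one of the 23 probe sets called for B6 T1, where 0.548% of all were called and 0.302% were higher. Arrays labelled NOD T1 were lower than B6 T1, with a difference of -0.99 ± 0.18 (limma adjusted p = 0.00266). The transitional against mature difference in B6 was 0.56 ± 0.11 (limma adjusted p = 0.0121). It was not called when only the B6 arrays compared, without T2MZ, were fitted (limma adjusted p = 0.169). Fitted on only the arrays compared, the other Rag1 calls were lost too, with limma adjusted p of 0.505 for T1 against FO, 0.162 for T1 against the other B6 groups and 0.0949 for NOD T1 against B6 T1. Without replicate 1 of B6 T1 the call of T1 against the other B6 groups was lost (limma adjusted p = 0.323). Without the 6 B6 arrays of low 5′ signal the transitional against mature difference in B6 was 0.62. With only those 6 it was 0.51 and was not called. Nor were T1 against FO (0.84) and T1 against the other B6 groups (0.65) called with only those 6. Each B6 group had 1 array in these fits. With quantile scaling the transitional against mature call was lost too (limma adjusted p = 0.0561).

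Rag2, the partner protein of Rag1 that stays bound to it in the recombinase, varied little. Values of its probe set, 1418065_at, were -0.10 and 0.01 in T1, 0.03 and 0.87 in T2FO, -0.05 and 0.15 in T3, -0.12 and 0.15 in FO, 0.07 and -0.04 in T2MZ and -0.36 and 0.15 in MZ of NOD. In B6 they were -0.01 and 0.12 in T1, -0.16 and 0.07 in T2FO, 0.19 and -0.22 in T3, -0.48 and -0.13 in FO, 0.17 and -0.31 in T2MZ and -0.08 and 0.07 in MZ. Replicate 2 of NOD T2FO, at 0.87, stood above the other 23 arrays, and its replicate 1 was at 0.03. No comparison called Rag2, and the transitional against mature difference in B6 was 0.16 log2 units (limma adjusted p = 0.736).

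The surrogate light chain is made of the products of Vpreb1 and Igll1, and it holds the heavy chain before a true light chain exists. Vpreb1, on probe set 1449869_at, had values of 0.00 and -0.11 in T1, 0.04 and -0.06 in T2FO, -0.08 and 0.20 in T3, -0.25 and -0.38 in FO, -0.10 and -0.13 in T2MZ and -0.26 and -0.30 in MZ of NOD. In B6 its values were 0.48 and 0.59 in T1, 0.57 and 0.03 in T2FO, 0.26 and 0.01 in T3, -0.27 and 0.20 in FO, 0.30 and 0.00 in T2MZ and -0.15 and 0.06 in MZ. The B6 T1 arrays were among the highest and the arrays labelled NOD FO among the lowest. Vpreb1 was not called in any comparison, with a difference between transitional and mature B6 arrays of 0.36 ± 0.12 log2 units (limma adjusted p = 0.129). With the 5′ minus 3′ actin difference as a covariate it was called in that comparison at 0.43 (limma adjusted p = 0.0105), in B6 T1 against FO at 0.63 (limma adjusted p = 0.0313) and in NOD T1 against B6 T1 at -0.81 (limma adjusted p = 0.00419), the last also with array weights (limma adjusted p = 0.0381). The probe set shared by Vpreb1 and Vpreb2 ranged from -0.29 to 0.24 over the 24 arrays.

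Igll1 encodes the λ5 chain of the surrogate light chain. Its described probe set, 1420177_at, had values of -0.32 and -0.18 in T1, 0.07 and -0.72 in T2FO, -0.10 and -0.01 in T3, 0.01 and -0.26 in FO, -0.01 and -0.49 in T2MZ and 0.12 and -0.11 in MZ of NOD. In B6 its values were 0.05 and 0.58 in T1, -0.10 and 1.75 in T2FO, -0.15 and 0.67 in T3, 1.12 and 0.06 in FO, -0.31 and 1.29 in T2MZ and 0.72 and 0.23 in MZ. The replicates of most B6 groups were far apart, and the high array of each B6 group was the one with low 5′ actin signal. Over the 12 B6 arrays Igll1 ran against the 5′ minus 3′ actin difference with r = -0.831 and rho = -0.755, given as a description of arrays that share pools and labelling. Igll1 was not called in any comparison, and NOD minus B6 over the subsets was -0.66 ± 0.22 log2 units (limma adjusted p = 0.215).

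Vpreb3 encodes a protein that binds immunoglobulin light chains inside B cells and, unlike the surrogate light chain, is made beyond the pre-B stage. Values of its probe set, 1422921_at, were -0.98 and -0.48 in T1, 1.27 and 0.84 in T2FO, 0.75 and 1.31 in T3, 0.19 and 0.23 in FO, -0.26 and 0.12 in T2MZ and 0.05 and 0.03 in MZ of NOD. In B6 they were 1.91 and -0.30 in T1, 0.90 and -0.63 in T2FO, 0.43 and -0.64 in T3, -1.54 and -0.40 in FO, -0.03 and -1.16 in T2MZ and -2.21 and -0.62 in MZ. In NOD the arrays labelled T2FO and T3 were the 4 highest and those labelled T1 the 2 lowest. In B6 each array of low 5′ actin signal sat apart from its replicate, by up to 2.21 log2 units in T1. Vpreb3 was not called between transitional and mature B6 arrays, at 1.47 ± 0.46 log2 units (limma adjusted p = 0.0933). Within each class of 5′ signal the difference was 1.59 without the 6 arrays of low signal and 1.35 with only those 6. Each B6 group had 1 array in these fits, with no replication in B6. With the 5′ minus 3′ actin difference as a covariate the transitional against mature difference was 1.84 (limma adjusted p = 0.000101).

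**Figure D3:**
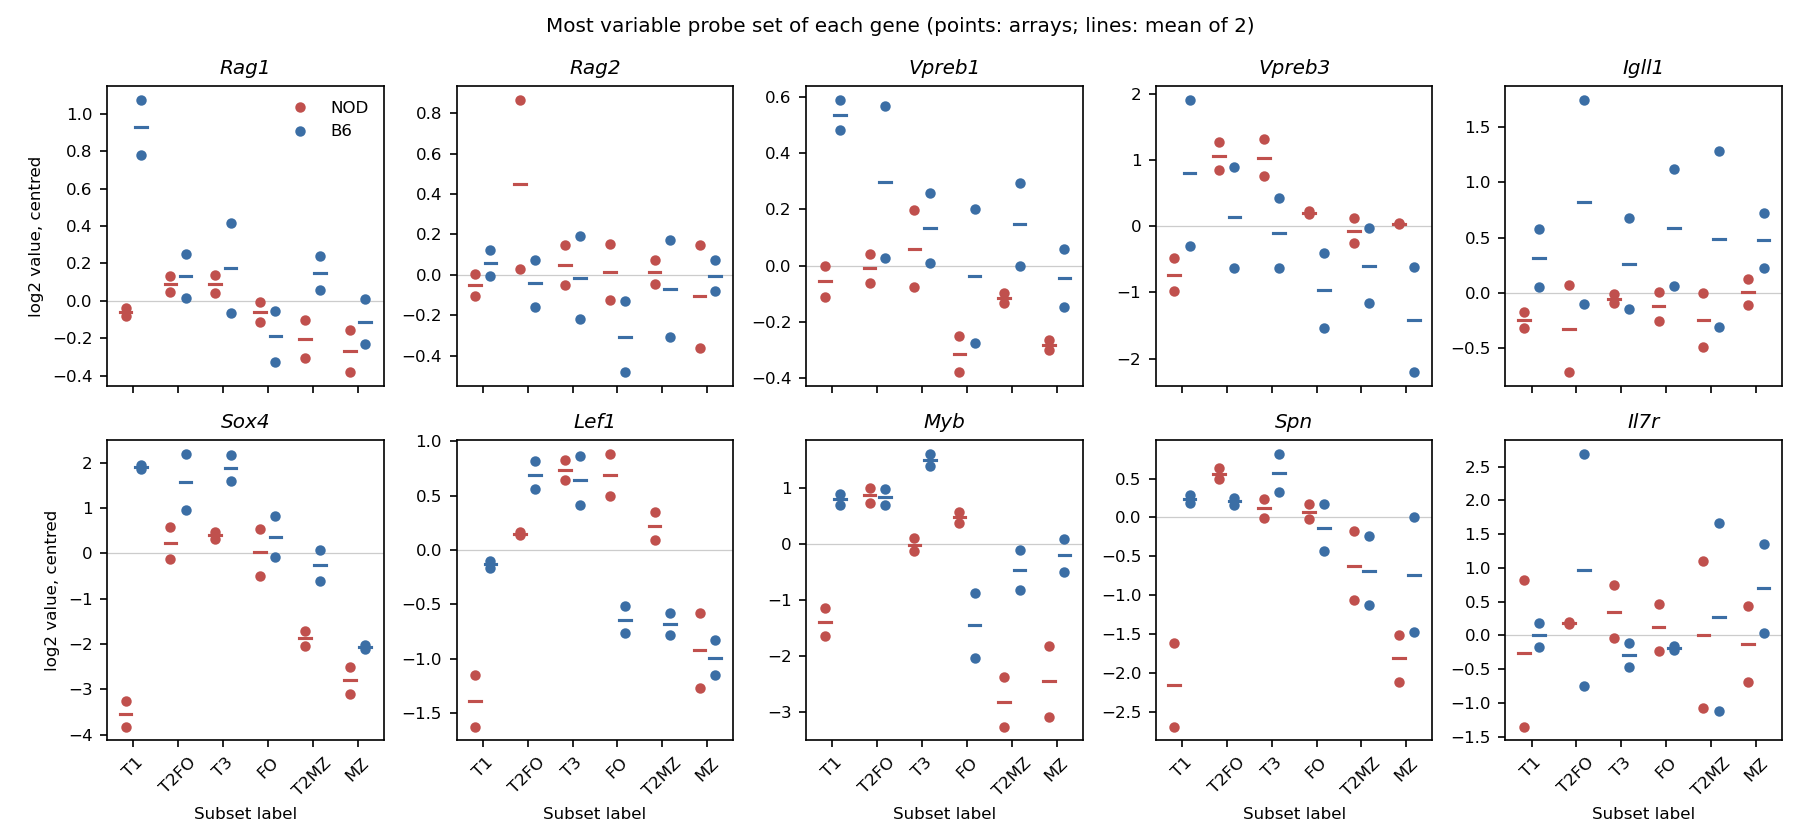
Values of both arrays of each group for the described probe sets of the 10 genes, in log2 units relative to the median over all 24 arrays, with NOD left of B6 in each subset and a line at the mean of the 2 arrays. Rag1 is set apart in B6 T1 at 1.08 and 0.78, and Sox4 is lowest in the arrays labelled NOD T1 at -3.83 and -3.27.

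Sox4, a transcription factor needed for B cell development beyond the pro-B stage, had the largest differences of the 10 genes. On its described probe set, 1433575_at, the values were -3.83 and -3.27 in T1, 0.58 and -0.12 in T2FO, 0.48 and 0.31 in T3, 0.54 and -0.49 in FO, -2.04 and -1.72 in T2MZ and -3.11 and -2.50 in MZ of NOD. The B6 values were 1.85 and 1.95 in T1, 0.96 and 2.19 in T2FO, 1.59 and 2.18 in T3, 0.82 and -0.08 in FO, -0.61 and 0.08 in T2MZ and -2.03 and -2.12 in MZ. In B6 the T1, T2FO and T3 arrays were all above the FO arrays and the FO arrays above the MZ arrays, while in NOD the arrays labelled T1, T2MZ and MZ were all below those labelled T2FO, T3 and FO. Transitional B6 arrays were higher than mature ones by 2.64 ± 0.29 log2 units (limma adjusted p = 0.000193), and B6 MZ was lower than the other B6 groups, with a difference of -3.17 ± 0.35 (limma adjusted p = 0.000191). By label, NOD T1 was lower than the other NOD groups, with a difference of -2.74 ± 0.35 (limma adjusted p = 0.000373). NOD T2FO was higher by 1.79 ± 0.35 (limma adjusted p = 0.0287), a call lost in 3 of 12 fits that left out an array and with array weights (limma adjusted p = 0.0620).

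In Sox4 the arrays labelled NOD T1 were lower than B6 T1, with a difference of -5.45 ± 0.45 log2 units (limma adjusted p = 3.17e-06), the largest difference between same-labelled groups among the described probe sets of the 10 genes. Over the subsets, on pool means, NOD was lower than B6, with a difference of -1.83 ± 0.13 (limma adjusted p = 0.0178, n = 2 pools each). This was the only one of the 23 probe sets called over the subsets, where 3.02% of all probe sets were called either way and 1.38% were lower. Leaving out either NOD pool lost the call, with a limma adjusted p up to 0.190, while the count of called probe sets was 5 without pool 1 of B6 and 3 without pool 2 of B6. The Sox4 call was also lost with the pools paired by number, at a limma adjusted p of 0.0705. The pool means join arrays by replicate number. Deviations of B6 FO and MZ arrays from their group means ran opposite to those of same-numbered arrays of the other B6 subsets. With the numbers of B6 FO and MZ crossed the Sox4 call was lost (limma adjusted p = 0.122). The other 7 Sox4 probe sets had differences between NOD and B6 of -0.11 to 0.19 and were not called. Of those 7, 1419156_at and 1419155_a_at were called between transitional and mature B6 arrays, at 1.65 ± 0.28 (limma adjusted p = 0.00434) and 1.01 ± 0.20 (limma adjusted p = 0.0126), both higher in the transitional arrays. So 3 of the 8 Sox4 probe sets were called between transitional and mature B6 arrays, 3 of the 8 between the T1 groups of the strains and 1 of the 8 between the strains over all subsets.

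Lef1, a partner of β-catenin that promotes survival and division of pro-B cells, differed among subsets in both strains on its described probe set. Its described probe set, 1454734_at, had values of -1.63 and -1.15 in T1, 0.14 and 0.17 in T2FO, 0.83 and 0.64 in T3, 0.88 and 0.50 in FO, 0.10 and 0.35 in T2MZ and -1.27 and -0.58 in MZ of NOD. In B6 its values were -0.10 and -0.17 in T1, 0.82 and 0.56 in T2FO, 0.87 and 0.41 in T3, -0.77 and -0.51 in FO, -0.58 and -0.78 in T2MZ and -1.15 and -0.83 in MZ. The T2FO and T3 arrays were the highest of B6, and the mature and T2MZ arrays were all below them and below T1. In NOD the arrays labelled T3 and FO were highest and those labelled T1 and MZ lowest, with no overlap. Transitional B6 arrays were higher than mature ones by 1.21 ± 0.15 log2 units (limma adjusted p = 0.000562). The arrays labelled NOD T1 were lower than the other NOD groups, with a difference of -1.56 ± 0.19 (limma adjusted p = 0.000217). Against the B6 group of the same label, Lef1 in NOD was lower in T1, with a difference of -1.26 ± 0.24 (limma adjusted p = 0.00459) and higher in FO by 1.33 ± 0.24 (limma adjusted p = 0.00685). The second Lef1 probe set, 1421299_a_at, had values of 1.54 and 0.98 in the arrays labelled NOD FO and -0.47 and -0.40 in those labelled NOD T1. In B6 its group means ran only from -0.37 in T2MZ to 0.13 in T3. It was not called there between transitional and mature arrays or over the subsets. It was higher in NOD than in B6 in T3 by 1.23 ± 0.24 (limma adjusted p = 0.0156) and in FO by 1.21 (limma adjusted p = 0.0120). For the described probe set the T1 call between strains was lost in 1 of 4 fits that left out an array and the FO call in 2 of 4, and both were lost when only the arrays compared were fitted (limma adjusted p = 0.0927 and 0.109).

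Myb, a transcription factor that holds lymphoid progenitors in an immature and dividing state, differed widely between subsets. Its described probe set, 1421317_x_at, had values of -1.13 and -1.64 in T1, 0.74 and 1.01 in T2FO, -0.12 and 0.10 in T3, 0.58 and 0.38 in FO, -3.26 and -2.36 in T2MZ and -3.08 and -1.81 in MZ of NOD. The B6 values were 0.90 and 0.70 in T1, 0.70 and 0.99 in T2FO, 1.40 and 1.61 in T3, -2.03 and -0.86 in FO, -0.81 and -0.10 in T2MZ and -0.49 and 0.10 in MZ. The T3 arrays were the highest of B6 and the FO arrays the lowest, and in NOD the arrays labelled T2FO were the highest and those labelled T2MZ and MZ the lowest. Transitional B6 arrays were higher than mature ones by 1.87 ± 0.28 log2 units (limma adjusted p = 0.00181), and a second Myb probe set, 1450194_a_at, by 1.94 ± 0.30 (limma adjusted p = 0.00234). B6 T1 was higher than B6 FO by 2.25 ± 0.43 (limma adjusted p = 0.0208), a call lost in 3 of 4 fits that left out an array (limma adjusted p up to 0.220), with array weights (0.0683) and on only the arrays compared (0.522). Against the other groups of its strain, B6 FO was lower, with a difference of -1.94 ± 0.33 (limma adjusted p = 0.0175), a call lost with array weights (limma adjusted p = 0.0704) and on B6 arrays alone (0.125). In NOD, T2FO was higher by 2.10 ± 0.33 (limma adjusted p = 0.00859) and T2MZ lower, with a difference of -2.31 ± 0.33 (limma adjusted p = 0.00837), both by label. Between strains the called differences had both directions. In NOD, Myb was lower than in B6 in T1, with a difference of -2.18 ± 0.43, in T2MZ, with a difference of -2.35 ± 0.43 and in MZ, with a difference of -2.25 ± 0.43 (limma adjusted p = 0.00591, 0.00761 and 0.0111), and higher in FO by 1.93 ± 0.43 (limma adjusted p = 0.0258). The FO call was lost in 3 of 4 fits that left out an array (limma adjusted p up to 0.241), without the B6 arrays of low 5′ signal (0.165) and on only the arrays compared (0.161). Each of the T1, T2MZ and MZ calls was lost in 2 of 4 such fits. Genes of dividing cells were read beside Myb. The mean of Mki67, Top2a, Cdk1 and Birc5 correlated with Myb with r = 0.668 and rho = 0.594 over the 12 NOD arrays. Over the 12 B6 arrays it had r = 0.477 and rho = 0.287, as a description of arrays that share pools. Of these 4 genes, 2 were called higher in NOD FO than in B6 FO and 2 lower in NOD T2MZ than in B6 T2MZ. Between the strains in T1, T2FO, T3 and MZ 0 of the 4 were called. The part of these genes in the Myb differences was not tested.

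**Figure D4:**
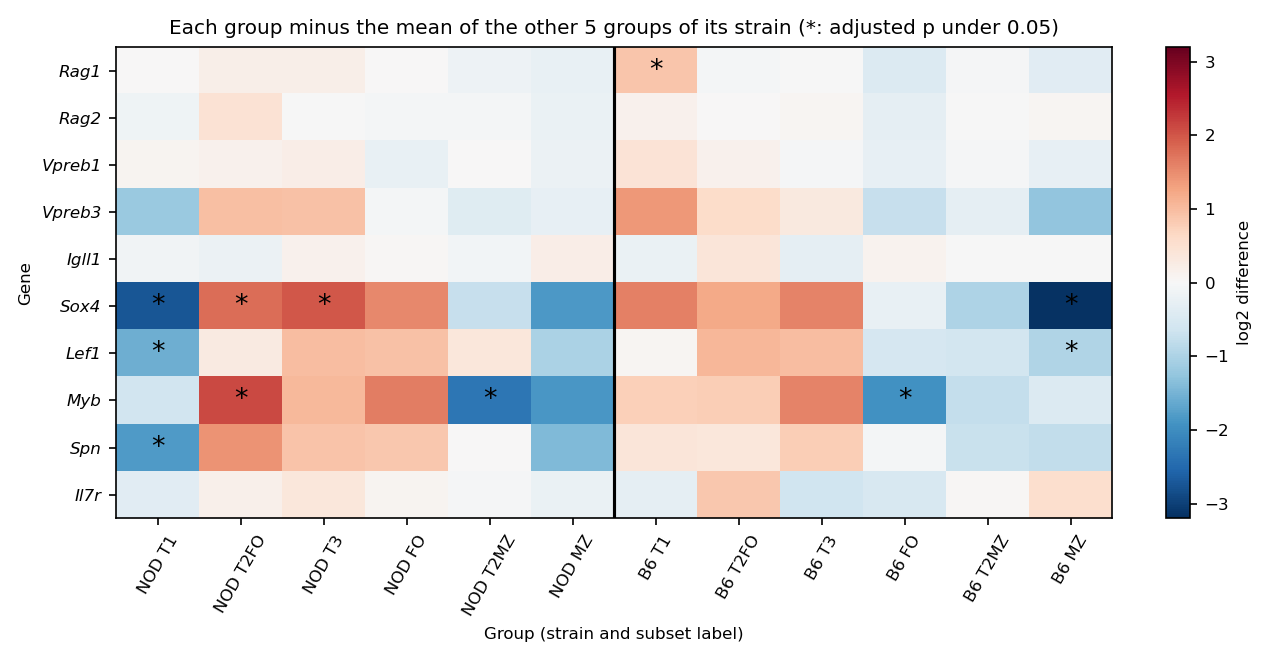
Difference in log2 units of each group from the mean of the other 5 groups of its strain, as colour, for the described probe set of each gene, with a star where called, NOD groups left of B6 groups. Calls fall on T1, T2FO, T3 and T2MZ by label in NOD and on T1, FO and MZ in B6, with Sox4 at -2.74 in NOD T1 and at -3.17 in B6 MZ.

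Spn encodes CD43, a surface sialoprotein of pro-B cells that mature splenic B cells have lost and that plasma cells and T cells carry. For its described probe set, 1439034_at, the values were -2.69 and -1.61 in T1, 0.63 and 0.49 in T2FO, 0.00 and 0.24 in T3, -0.03 and 0.17 in FO, -1.07 and -0.18 in T2MZ and -2.11 and -1.51 in MZ of NOD. In B6 its values were 0.29 and 0.19 in T1, 0.16 and 0.25 in T2FO, 0.33 and 0.82 in T3, 0.17 and -0.43 in FO, -1.13 and -0.24 in T2MZ and -1.48 and 0.00 in MZ. The arrays labelled NOD T1 and MZ lay below every array labelled NOD T2FO, T3 or FO, and in B6 the replicates of MZ differed by more than 1 log2 unit. Spn was lower in the arrays labelled NOD T1 than in the other NOD groups, with a difference of -1.82 ± 0.36 log2 units (limma adjusted p = 0.0132) and lower than in B6 T1, with a difference of -2.39 ± 0.46 (limma adjusted p = 0.00513). Each of these calls was lost in 1 fit that left out an array, with limma adjusted p up to 0.507 within NOD and 0.0967 between strains. Between transitional and mature B6 arrays it differed by 0.77 ± 0.30 and was not called (limma adjusted p = 0.189). The highest NOD arrays for Spn, those labelled T2FO, were also the highest for plasma cell genes. The mean of the plasma cell list was 1.75 and 2.43 there, and the next highest array, replicate 2 of NOD FO, was at 1.08. Its part in the Spn values was not tested.

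Il7r encodes the receptor chain for interleukin 7, the growth factor of pro-B and pre-B cells, and is also carried by T cells. For its described probe set, 1448575_at, the values were -1.35 and 0.83 in T1, 0.16 and 0.20 in T2FO, -0.04 and 0.75 in T3, -0.23 and 0.47 in FO, -1.07 and 1.10 in T2MZ and -0.68 and 0.44 in MZ of NOD. The B6 values were -0.17 and 0.19 in T1, -0.75 and 2.69 in T2FO, -0.47 and -0.11 in T3, -0.22 and -0.16 in FO, -1.11 and 1.66 in T2MZ and 0.04 and 1.35 in MZ. Replicate 2 was above replicate 1 in 6 of 6 NOD groups and in 6 of 6 B6 groups, so the order of the replicates was the same in all 12 groups. Il7r was not called in any comparison, and the transitional against mature difference in B6 was -0.02 log2 units (limma adjusted p = 0.994). The T cell list showed the same order of replicates in 6 of 6 NOD groups and in 4 of 6 B6 groups. Of its 10 listed genes 9 were measured. Their mean correlated with Il7r with r = 0.808 and rho = 0.853 over the 12 NOD arrays. Over the 12 B6 arrays it had r = 0.606 and rho = 0.217, again as a description. The 3 highest B6 arrays for Il7r, replicate 2 of T2FO at 2.69, of T2MZ at 1.66 and of MZ at 1.35, had T cell means of 0.58, 0.07 and 0.63 and NK cell means of 1.57, 0.77 and 0.65. The part of T or NK cell RNA in these values was not tested.

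**Figure D5:**
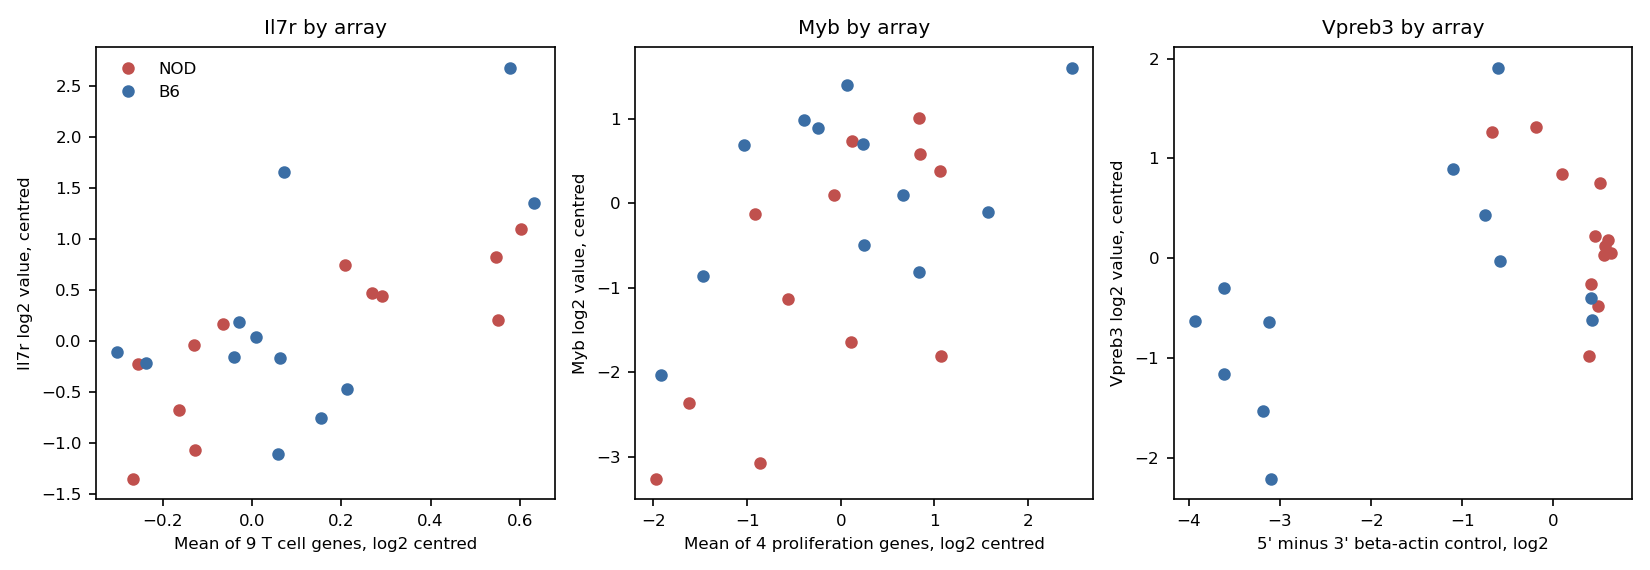
Il7r against the mean of the T cell list, Myb against the mean of the proliferation list and Vpreb3 against the 5′ minus 3′ beta-actin difference, in log2 units, 1 point per array, coloured by strain. Il7r and the T cell list have r = 0.808 over the NOD arrays and r = 0.606 over the B6 arrays, and the B6 array with Il7r at 2.69 has a T cell mean of 0.58.

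Tests over all subsets of a strain were called for Sox4, Lef1 and Myb in both strains. Among the NOD groups 8 of the 23 probe sets differed (limma F test), where 1.77% of all probe sets did, and among the B6 groups 6 did, where 1.41% of all did. The adjusted p in NOD was 0.000260 for Sox4, 0.000409 for Lef1, 0.000454 for Myb and 0.0124 for Spn, and 2 further Sox4 probe sets and a second probe set each of Lef1 and Myb made up the 8. In B6 the limma adjusted p was 0.000759 for Sox4, 0.00309 for Lef1, 0.0125 for Myb and 0.0256 for Rag1, and a second Sox4 and a second Myb probe set made up the 6. Rag1 lost this call in 4 of the 12 fits that left out a B6 array, and fitted on the B6 arrays alone 0 of the 23 were called. Without replicate 1 of B6 T1 the count over the B6 subsets was 3, and without replicate 1 of NOD T1 the count over the NOD subsets was 5. Against the other groups of their strain, the arrays labelled NOD T1 had 5 probe sets called lower, where 2.16% of all were called and 0.695% were lower. T2FO of NOD had 3 called higher, where 0.644% of all were called and 0.364% were higher. T3 of NOD had 1 higher, a Sox4 call lost in 10 of 12 fits that left out an array, where 0.109% of all were called and 0.0355% were higher. T2MZ of NOD had 2 lower, where 0.218% of all were called and 0.111% were lower. FO and MZ of NOD had 0 in limma, with 9 and 8 at an unadjusted p under 0.05, where 0.162% and 0.0111% of all were called. In B6, T1 had 1 called. FO of B6 had 1 lower, where 0.544% of all were called and 0.278% were lower, and MZ had 3 lower, where 1.42% of all were called and 0.586% were lower. T2FO, T3 and T2MZ of B6 had 0 in limma, with 6 each at an unadjusted p under 0.05, where 0.0311%, 0.00222% and 0.00222% of all were called. The 11 calls of the NOD groups became 6 without replicate 1 of T1 or of T2MZ and 7 without replicate 2 of T1, T2FO or T2MZ, and the 5 of the B6 groups became 3 without replicate 1 of T1 or either MZ array.

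Set label against label, the count of differences between NOD and B6 was 8 in T1 and lower elsewhere. In T1 8 of the 23 probe sets were lower in NOD and 0 higher, where 6.31% of all probe sets were called either way and 2.51% were lower. These belonged to Sox4 (3), Myb (2), Rag1, Lef1 and Spn. In T2FO 0 were called in limma, with 5 at an unadjusted p under 0.05, where 2.58% of all were called. In T3 1 was called higher in NOD, where 1.72% of all were called and 1.01% were higher, and in FO 3 were called higher in NOD, where 2.88% of all were called and 1.48% were higher. In T2MZ 2 Myb probe sets were lower in NOD, where 2.73% of all were called and 1.02% were lower, and in MZ 1 was, where 2.52% of all were called and 0.941% were lower. These comparisons rest on the NOD labels, which Cd93 and Cr2 went against in T1. Cd93 was also lower in the arrays labelled NOD T2FO than in B6 T2FO. Fcer2a was higher in those labelled NOD MZ than in B6 MZ. Of the 3 sort marker genes, 1 was also called lower in NOD than in B6 in T3 and 1 in T2MZ, and 0 were called in FO. Leaving out 1 array left 4 calls in T1 without replicate 1 of B6 or replicate 2 of NOD and 5 without replicate 1 of NOD. It left 0 in T3 and in FO without replicate 1 of NOD or of B6, and 0 in MZ without replicate 1 of NOD or replicate 2 of B6. In T2MZ it left 0 without replicate 1 of NOD or replicate 2 of B6 and 1 without the other arrays, and in T2FO it gave 1 without replicate 1 of NOD. In fits without the 6 B6 arrays of low 5′ signal, or with only those 6, each B6 group had 1 array. The spread then came from the NOD arrays alone, and the share of all probe sets called is not given. T1 did not have the most calls in each of these fits, and they give no ranking of the subsets.

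Of 25 further genes of recombination, end joining and the early B lineage, 22 had a probe set of their own. Each was read only through its most variable probe set over the arrays, and any other probe sets of these genes are not given. That choice favours probe sets with large differences, so the counts cannot be set directly against shares of all probe sets. Of all probe sets, 3.98% were called either way between transitional and mature B6 arrays and 3.02% between NOD and B6 over the subsets. Between transitional and mature B6 arrays 1 was higher, Foxo1, which drives Rag expression, by 0.95 ± 0.25 log2 units (limma adjusted p = 0.0468), and 1 was lower, Xrcc5, which encodes the Ku80 end-joining protein, with a difference of -1.12 ± 0.20 (limma adjusted p = 0.00696). Over the subsets 2 were higher in NOD than in B6 and 0 lower, Ikzf3 by 2.67 ± 0.14 (limma adjusted p = 0.0146) and Irf8 by 1.22 ± 0.12 (limma adjusted p = 0.0246). Ikzf3 encodes Aiolos, a zinc finger factor of the Ikaros family, and Irf8 a factor that acts from the pre-B stage on. By label, Ikzf3 was called higher in NOD in all 6 subsets, with differences of 2.03 in T1 to 3.58 in MZ, and Irf8 in T3, FO, T2MZ and MZ, with differences of 1.23 in FO to 1.83 in MZ. In the arrays labelled NOD T1, Prkdc (0.93) and Xrcc5 (1.33) of end joining were also higher than in B6 T1 and Lig4 (-1.29), the ligase of that pathway, was lower. Dntt, the polymerase that adds bases at the joins, Ebf1 and Pax5 were not called in any comparison.

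Of the 23 probe sets, 9 were called in at least 1 of the 25 comparisons and 14 in none. Probe sets of 1 gene did not all behave alike. The third Myb probe set, 1422734_a_at, ranged from -0.76 to 1.20 over the 24 arrays and was called nowhere, and nor were the 5 remaining Sox4 probe sets, of which 1449370_at had the widest range, from -0.45 to 1.02. The second probe set of Igll1 ranged from -0.36 to 0.88, that of Il7r from -0.39 to 0.51 and that of Spn from -0.45 to 0.12, each called in no comparison.

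Over the 12 group means some of the 10 genes ran together. Sox4 and Spn had r = 0.906, Rag1 and Vpreb1 0.867, Lef1 and Spn 0.801, Sox4 and Myb 0.766, and Igll1 and Rag2 -0.528. Within the 6 B6 groups Vpreb1 and Vpreb3 had r = 0.954 and Rag1 and Vpreb1 0.939. Within the 6 NOD groups Sox4 and Spn had 0.969. The genes with the pattern most like a member over the 12 group means, taken as the 3 highest r among all genes, were Padi4 (0.966), 9530077C05Rik (0.94) and Tmem229b (0.938) for Rag1. For Vpreb3 they were Fam117a (0.981), Anks1 (0.967) and Nfkbia (0.959), and for Sox4 Litaf (0.954), Aqp4 (0.954) and Septin11 (0.953). For Lef1 they were Dnaaf5 (0.896), Cdk3 (0.895) and Ido1 (0.892), for Myb Atp1a4 (0.936), Man2a2 (0.924) and Vps26b (0.911), and for Spn Mapt (0.976), Selenop (0.943) and Atp6v0a1 (0.942). For Rag2, Vpreb1, Igll1 and Il7r the most alike were Scrt1 (0.962), Mief2 (0.952), Dlat (0.963) and Rhpn2 (0.942). These are descriptions over 12 means that share pools and arrays, picked as the highest among all genes measured.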

How the data were processed

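RNA of 24 samples of sorted splenic B cells was labelled in 2 rounds of amplification primed with oligo(dT) and hybridised to mouse expression arrays, 1 sample per array, per the labels' protocols. The deposited log2 values were made by the authors with RMA, per the submitters' processing notes. Its version and the base of the logarithm, taken as 2, are not given in the sources used here. Each probe set of the deposited table has a median of about 0 across arrays (at most 5e-07 in size), which hides dim probe sets, so the planned filter on them was not run. The platform annotation gave several genes for 932 of the 45101 probe sets and no gene for 9160, and 64 were controls.

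Group means were fitted with limma 3.58.1 in R 4.3.3 to 12 groups and 24 arrays together, with 1 common estimate of the spread, with eBayes and Benjamini-Hochberg adjustment over 45037 probe sets. NOD against B6 over the subsets used 4 pool means. Errors are standard errors. No 2 arrays were alike (highest correlation 0.886). The number of arrays limits the precision. In the group comparisons, p-values rest on the spread between the 2 arrays of a group, taken over the 12 groups of both strains. That spread was 0.448 in B6 and 0.261 in NOD over all probe sets, so the common estimate lies below that of B6. The arrays were taken as independent, although the groups of a strain share 2 pools. Only the test over the subsets measured the spread between pools. The fit was tested on simulated data. Figures used matplotlib 3.10.9 in Python 3.11.15, and promoters came from RefSeq.

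The 10 genes and the lists of the recombination pathway and of B, T, NK, myeloid, plasma, erythroid and platelet cells and proliferation were chosen with earlier results of these data known. Every probe set of the 10 genes is accounted for, that of largest standard deviation describes the gene, and like genes are the 3 of highest correlation over group means. Alternatives were other scaling, covariates, array weights, blocks, fewer arrays in the fit and leaving out each array or pool. The split of B6 arrays by 5′ signal was added after seeing the data.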

Additional observations from a re-analysis of the deposited data

Results flagged for a closer look

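The difference between NOD and B6 depended on the subset label for 4 of the 23 probe sets, by the limma F test of strain by subset, where 1.35% of all probe sets were called. The adjusted p was 0.0037 for Sox4, 0.00495 for Myb, 0.00533 for Lef1 and 0.0315 for the second Myb probe set, 1450194_a_at. For Sox4 the difference, NOD minus B6, was -5.45 in T1 and -0.35 in FO. For Myb it was -2.18 in T1 and 1.93 in FO, and for Lef1 -1.26 in T1 and 1.33 in FO. The FO differences of Myb and Lef1 lost their calls in 3 and 2 of 4 fits that left out an array. The same labels carried opposite values of the sort marker transcript Cd93 in NOD T1 and B6 T1, at -2.04 and -2.14 against 3.14 and 2.98, and the part of the labels in the dependence cannot be told apart from a difference between strains.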

How the results depend on the processing

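Counts below are probe sets called among the 23. Fitted on only the arrays compared, the count was 0 instead of 2 for B6 T1 against FO, 3 instead of 7 for transitional against mature B6, 3 instead of 8 for NOD against B6 in T1, and 0 instead of 1, 3, 2 and 1 in T3, FO, T2MZ and MZ. It was 0 instead of 6 over the B6 subsets and 1 instead of 5 for B6 groups against the others. In NOD the count rose, to 10 instead of 8 over the subsets and 15 instead of 11 for NOD groups against the others. With array weights it was 1 for B6 T1 against FO, 1 in T2MZ, 3 over the B6 subsets, 2 for the B6 groups and 21 instead of 11 for the NOD groups. With the 5′ minus 3′ actin difference as covariate it was 7 for B6 T1 against FO, 1 in T2FO, 3 in T3, 8 instead of 4 for strain by subset, 14 for the B6 groups and 24 for the NOD groups. With quantile scaling it was 3 in T3, 5 in FO, 4 in MZ, 3 for NOD against B6 over subsets, 3 for the B6 groups and 25 for the NOD groups. With 24 arrays taken as independent it was 6 over subsets, and 0 with crossed numbers of B6 FO and MZ. Without the 6 B6 arrays of low 5′ signal, or with only those 6, counts moved in several comparisons. That split was chosen after seeing the data. Each B6 group then had 1 array and the spread came from the NOD arrays alone, so these counts are not given. Robust eBayes and adjustment over probe sets with 1 gene moved no count by over 1.5 times. Fewer arrays were fitted where arrays were left out. Fits on the arrays of 1 strain took the spread from that strain alone, and it was 0.448 in B6 and 0.261 in NOD. The cause of these changes was not tested.

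With the replicate number as a block the count was 3 instead of 1 in T3 and 0 instead of 1 over subsets. Arrays of the same number did not run together throughout. Deviations of same-numbered B6 arrays correlated at 0.733 to 0.873 among T1, T2FO, T3 and T2MZ and at 0.71 between FO and MZ, but at -0.62 to -0.368 between these 2 sets, and those of NOD arrays at -0.042 to 0.507. The deviations of B6 FO and MZ thus ran opposite to those of the other B6 subsets by number, as their 5′ actin signal also did. Il7r, however, had replicate 2 above replicate 1 in 6 of 6 B6 groups. Whether the numbers are crossed or the deviations go with the 5′ signal alone was not tested.

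Leaving out 1 array or pool at a time gave 0 to 2 for B6 T1 against FO, 5 to 9 for transitional against mature B6, 0 to 0 for the same in NOD, 3 to 6 over the B6 subsets, 5 to 8 over the NOD subsets, 3 to 6 for the B6 groups, 6 to 12 for the NOD groups and 3 to 6 for strain by subset. For NOD against B6 it gave 4 to 9 in T1, 0 to 1 in T2FO, 0 to 1 in T3, 0 to 4 in FO, 0 to 1 in T2MZ, 0 to 1 in MZ and 0 to 5 over subsets. For single genes, 27 of 1740 values under other settings lost a call, 58 gained one and 0 called values turned in direction. Of 2440 values with 1 array or pool left out, 48 lost a call, 11 gained one and 0 called values turned. Most of the 1740 and 2440 values were not called in the main fit and so had no call to lose. These totals are therefore no measure of how stable the calls were. Most of the 27 lost calls fell in the fits on only the arrays compared. Uncalled values did change sign in such fits. Signal over background could not be read from centred values, so what dim signal limits is unknown.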

Other observations

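Marker lists of other cells varied between arrays beyond the genes described. The myeloid list, whose cells the CD11b depletion should remove, had means of 1.49 and 1.58 in the arrays labelled NOD FO and 1.56 in replicate 2 of B6 MZ. The B cell list ran from -0.075 to 0.541 over the NOD arrays and from -1.13 to -0.085 over the B6 arrays. The T cell list, with 0 of its 9 measured genes called in any comparison by limma, ran from -0.268 to 0.604 in NOD and from -0.302 to 0.632 in B6. The NK cell list ran from -0.429 to 0.577 in NOD and from -0.210 to 1.57 in B6. The plasma cell list ran from -1.10 to 2.43 in NOD and from -1.27 to 0.542 in B6, proliferation genes from -1.97 to 1.07 in NOD and from -1.92 to 2.47 in B6, and the erythroid and platelet list from -0.237 to 0.330 in NOD and from -0.194 to 0.432 in B6. No explanation of these ranges was tested.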
